A study of Mus musculus with 18 samples.

Results

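The genes described here are the Toll-like receptors of the mouse that were measured in spleen: Tlr1, Tlr2, Tlr3, Tlr4, Tlr5, Tlr6, Tlr7, Tlr8, Tlr9 and Tlr13. They were taken by gene symbol, and all 10 were found among the 56876 genes of the deposited table. All 10 passed the filter on low values, which asked for at least 1 TPM (a level corrected for transcript length and scaled to the same total in each library) in at least 3 libraries and left 16635 genes. The study put 4T1 cells, a mouse mammary carcinoma line that stands for triple-negative breast cancer (TNBC), into the mammary pads of female Balb/c mice. Mice then received an antibody to G-CSF, an antibody to PD-1 or an anti-IgG antibody. Each was given into the peritoneal cavity at 10 mg/kg on days 18, 21 and 24, and RNA of spleen cells was sequenced at day 29 from mice with or without a tumour.

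The titles give 6 groups of 3 libraries each: N_I, N_P and N_GC without a tumour, and T_I, T_P and T_GC with one. No genotype, allele or age is given for any group, and no label spells out the codes I, P and GC. The remaining labels go against the titles: as treatment they give anti-PD-1 for every library titled T and WT for every library titled N, and as cell type they give tumour-bearing mice throughout. Groups below are therefore called by their codes, with no antibody assigned to a code. The labels do not say whether the 3 libraries of a group came from 3 animals, so p-values measure the spread between these libraries only.

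Toll-like receptors recognise conserved parts of microbes and molecules released by damaged cells. TLR1, TLR2, TLR4, TLR5 and TLR6 work at the cell surface, where they bind lipoproteins, lipopolysaccharide and flagellin. TLR3, TLR7, TLR8, TLR9 and TLR13 work in endosomes and read nucleic acids. All but TLR3 signal through the adaptor MyD88, and the transcription factors that follow, NF-kB and the interferon regulatory factors, switch on cytokine genes. In spleen, neutrophils, monocytes and macrophages are known for the surface receptors, whereas B cells and plasmacytoid dendritic cells are known for TLR9 and TLR7.

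The libraries summed to the same total, so sequencing depth is unknown.  Between libraries of 1 group, Pearson correlations across the tested genes were 0.953 to 0.976, and no pair of libraries was identical. T_GC libraries varied more among themselves, with a median SD of 0.203 on the log2 scale against 0.122 to 0.145 in the other groups, and the shared fit may understate their spread. Because TPM always add up to the same total, a few very abundant transcripts lower all others. With median-of-ratios scaling in place of TPM, the median log2 difference over all genes moved by 0.45 in T_I against N_I, by 0.40 in T_P against N_P, by -0.39 in T_GC against either T_I or T_P, and by 0.09 in T_GC against N_GC. Over all genes, calls in T_I against N_I went from 2893 higher and 8717 lower in TPM to 5471 and 4869 after rescaling, those in T_GC against T_I from 8109 and 2115 to 3815 and 4784, and those in the interaction of code GC with the tumour from 5564 and 1153 to 2273 and 3310. A TPM change of a receptor is therefore read beside its rescaled value wherever the call differs.

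Sequences upstream of the receptors are shown for members chosen by the log2 change of TPM + 1 in T_I against N_I. These are the 2 with the largest increase and the 2 with the largest decrease on that scale. In mean TPM the order of increases differed: Tlr5 rose 3.55-fold, Tlr2 3.30-fold and Tlr13 2.60-fold. RefSeq promoter entries on GRCm38.p6, each from 250 bases before to 50 after the start of the gene, were found for 8 of the 10 members, and Tlr4 and Tlr7 are only named. Capitals mark matches, on either strand, to the letters of 4 motifs of factors known in myeloid and B cells: GAGGAAGT for PU.1, GAAANNGAA for interferon regulatory factors, GGNNTTTCC for NF-kB and TTGCNNAA for C/EBP. Matches could overlap, but those printed here do not.
Tlr2, chr3:83841559-83841858, reverse strand: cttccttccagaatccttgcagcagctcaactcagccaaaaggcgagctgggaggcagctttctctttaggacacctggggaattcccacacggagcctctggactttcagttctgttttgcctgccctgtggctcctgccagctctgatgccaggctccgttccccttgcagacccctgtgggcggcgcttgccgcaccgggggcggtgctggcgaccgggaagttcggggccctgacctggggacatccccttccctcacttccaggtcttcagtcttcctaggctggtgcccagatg
Tlr13, chrX:106143025-106143324, forward strand: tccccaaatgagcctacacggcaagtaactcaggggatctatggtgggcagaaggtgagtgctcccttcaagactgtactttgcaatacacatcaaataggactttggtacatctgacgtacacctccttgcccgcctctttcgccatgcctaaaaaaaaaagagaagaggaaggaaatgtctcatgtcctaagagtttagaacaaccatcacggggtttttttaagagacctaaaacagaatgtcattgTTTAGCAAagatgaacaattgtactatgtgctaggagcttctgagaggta
Tlr9, chr9:106222348-106222647, forward strand: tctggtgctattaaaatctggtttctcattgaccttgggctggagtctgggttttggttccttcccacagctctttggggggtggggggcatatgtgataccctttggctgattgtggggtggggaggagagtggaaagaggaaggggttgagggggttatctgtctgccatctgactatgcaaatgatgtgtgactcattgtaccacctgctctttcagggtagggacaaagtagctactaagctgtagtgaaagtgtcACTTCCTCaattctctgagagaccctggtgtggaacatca
Tlr3, chr8:45410331-45410630, reverse strand: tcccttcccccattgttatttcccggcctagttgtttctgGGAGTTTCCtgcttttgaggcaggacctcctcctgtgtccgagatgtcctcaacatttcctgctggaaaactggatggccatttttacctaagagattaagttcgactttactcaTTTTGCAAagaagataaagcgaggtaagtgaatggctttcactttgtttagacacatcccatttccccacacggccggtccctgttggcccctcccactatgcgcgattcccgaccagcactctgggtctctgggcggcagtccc
The PU.1 letters were found in 3.20% of the 32851 promoters in the table, and among the members in a promoter of Tlr1 and in that of Tlr9, just after the start of the gene. The C/EBP letters, in 10.8% of all promoters, were found for Tlr3, Tlr6, Tlr8 and Tlr13. The NF-kB letters were in 5.82% of all promoters and matched Tlr3 and Tlr5, and the interferon regulatory factor letters were in 8.56% and matched Tlr6 and Tlr8. The Tlr2 promoter held none of the 4. A match describes the letters of this window and not a bound site.

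With a tumour the family split by receptor. Tlr2, Tlr4, Tlr5 and Tlr13 were higher in T_I than in N_I, whereas Tlr1, Tlr3, Tlr7 and Tlr9 were lower, and the summed TPM of the 10 genes differed by less than the spread between libraries. In T_GC, transcripts of Tlr3, Tlr7 and Tlr9 were at levels that overlapped the tumour-free groups, and Tlr2, Tlr4, Tlr5 and Tlr13 were lower than in T_I. Changes were tested with limma on log2(TPM + 1) over all 16635 genes, and "adjusted p" means limma's p-value with Benjamini-Hochberg adjustment, called below 0.05. Fold changes on this scale understate the change of genes near 1 TPM. In T_I against N_I, 4 of 10 members were called higher, beside 17.4% of all genes, and 4 were called lower, beside 52.4% of all genes. The median log2 difference was 0.46 over the members and -0.45 over all genes. In bulk spleen, fewer cells of a type and less RNA per cell cannot be told apart.

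**Figure D1:**
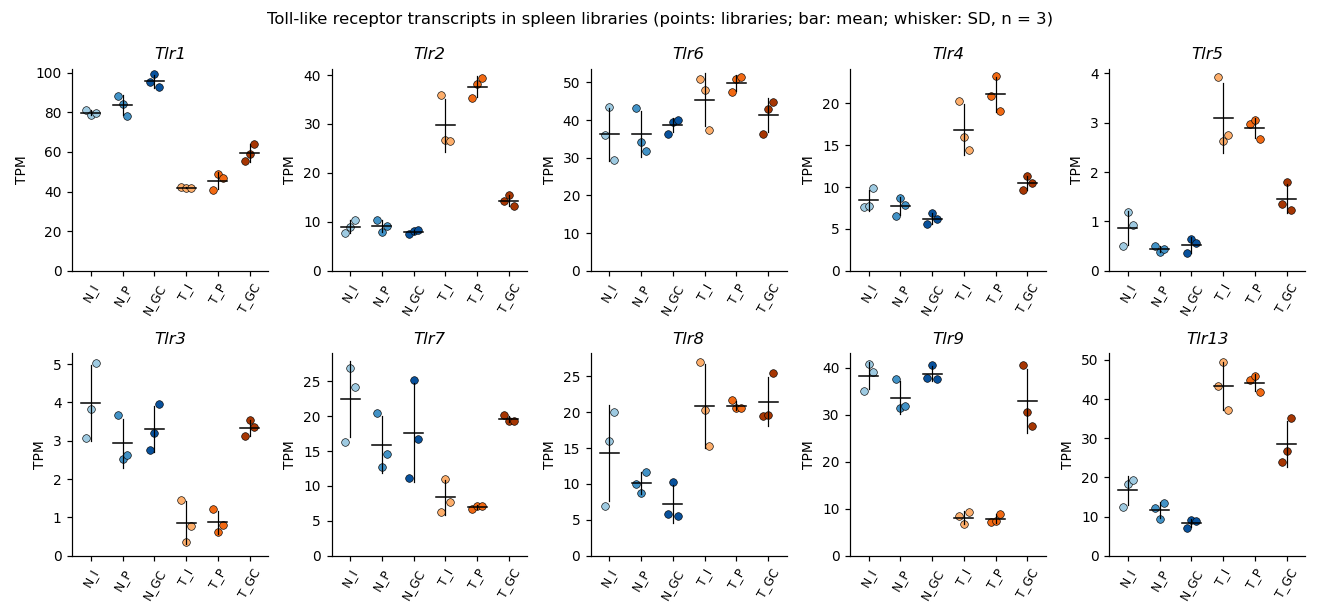
Level of each receptor in TPM (vertical axis) in the 18 libraries by group (horizontal axis). Points are libraries, bars group means and whiskers 1 SD, with n = 3. Tlr9 lay between 6.66 and 9.20 TPM in all T_I and T_P libraries and at 27.7 TPM or more in all others.

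Among the surface receptors, TLR2 senses bacterial lipoproteins together with TLR1 or TLR6. Tlr2 stood at 7.78, 8.92 and 10.3 TPM in the N_I libraries and at 35.96, 26.7 and 26.5 TPM in the T_I libraries. The N_P libraries held 10.4, 7.99 and 9.20 TPM and the T_P libraries 35.3, 38.3 and 39.3 TPM. In the N_GC libraries it was at 7.54, 8.13 and 8.24 TPM and in the T_GC libraries at 14.2, 15.6 and 13.2 TPM. Every T_I and T_P library was above every T_GC library, and every T_GC library above every N library. The log2 increase with a tumour was 1.61 (SE 0.13, adjusted p = 3.18e-08), or 3.30-fold in mean TPM, in T_I against N_I. It was 1.92 (adjusted p = 4.30e-09) in T_P against N_P and 0.77 (adjusted p = 0.000273) in T_GC against N_GC.

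Tlr1, the partner of TLR2 for triacyl lipoproteins, was the most abundant member in all tumour-free libraries and went the other way. It was at 81.3, 78.6 and 79.6 TPM in N_I and at 42.2, 41.9 and 41.6 TPM in T_I. In N_P it was at 88.3, 84.1 and 78.3 TPM and in T_P at 41.0, 49.0 and 46.7 TPM. In N_GC it was at 95.2, 99.2 and 92.8 TPM and in T_GC at 55.5, 58.8 and 64.1 TPM. No library with a tumour reached the lowest tumour-free library. The log2 change was -0.91 (SE 0.07, adjusted p = 2.35e-08) in T_I, -0.86 (adjusted p = 3.82e-08) in T_P and -0.68 (adjusted p = 3.31e-06) in T_GC, each against its N group. With median-of-ratios scaling these changes were -0.38, -0.38 and -0.58, all still called.

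Tlr6, the other partner of TLR2, had group means from 36.3 to 49.96 TPM. It was called higher in T_P against N_P, with T_P libraries at 47.5, 50.8 and 51.5 TPM above N_P libraries at 43.2, 34.1 and 31.7 TPM (log2 change 0.46, adjusted p = 0.0109). Without replicate 38 of N_P that adjusted p was 0.0538. In T_I against N_I the ranges overlapped and the log2 difference of 0.32 was not called (95% interval 0.01 to 0.63, adjusted p = 0.0600). It was called after median-of-ratios scaling, at 0.85 (adjusted p = 0.000171). Tlr6 and Tlr1 are neighbours on chromosome 5 with closely related sequence: 7.89% of the 100-base windows of Tlr1 transcripts in GENCODE vM21 occur in Tlr6 too, and 7.09% of those of Tlr6 occur in Tlr1. How reads were shared between them is not given in the sources used here, so their split is less certain than that of the other members.

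The transcript levels of Tlr2 and its partners relative to each other can be read within a library, where scaling cancels. Such ratios in bulk spleen do not give the makeup of receptor pairs in a cell. They also depend on how reads were shared between Tlr1 and Tlr6. The ratio of Tlr2 to Tlr1 in TPM was 0.0792 to 0.130 in the 9 tumour-free libraries, 0.636 to 0.861 in T_I and T_P, and 0.207 to 0.264 in T_GC. The ratio of Tlr6 to Tlr1 was 0.370 to 0.552 without a tumour, 0.898 to 1.21 in T_I and T_P, and 0.653 to 0.730 in T_GC. In both of these the 3 ranges were apart, with T_GC in the middle. The ratio of Tlr2 to Tlr6 was 0.205 to 0.350 without a tumour, 0.557 to 0.763 in T_I and T_P, and 0.296 to 0.391 in T_GC, so that T_GC overlapped the tumour-free libraries. Tlr1 made up 34.9% ± 3.86 (SD, n = 3) of the summed TPM of the 10 members in N_I and 19.3% ± 2.04 (SD, n = 3) in T_I. The sum itself was 230.2 ± 20.5 TPM in N_I and 218.6 ± 23.7 TPM in T_I, less than 1 SD apart.

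Tlr4, the receptor for lipopolysaccharide, was at 7.67, 7.74 and 9.88 TPM in N_I and at 20.2, 15.9 and 14.4 TPM in T_I. It was at 6.56, 8.71 and 7.89 TPM in N_P and at 20.9, 23.3 and 19.1 TPM in T_P. In N_GC it was at 5.58, 6.87 and 6.19 TPM and in T_GC at 9.59, 11.3 and 10.5 TPM. All T libraries were above their own N group, although the lowest T_GC library was within the range of N_I. The log2 increase was 0.92 (SE 0.14, adjusted p = 2.72e-05) in T_I, 1.34 (adjusted p = 5.15e-07) in T_P and 0.67 (adjusted p = 0.00168) in T_GC.

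Tlr5, the flagellin receptor, was the lowest member without a tumour, at 0.350 to 1.19 TPM in the 9 N libraries. It was at 3.92, 2.64 and 2.75 TPM in T_I, at 2.97, 3.06 and 2.67 TPM in T_P and at 1.36, 1.79 and 1.23 TPM in T_GC. The N libraries, T_GC, and T_I with T_P formed 3 ranges that did not overlap. The gap between the highest N library, at 1.19 TPM, and the lowest T_GC library, at 1.23 TPM, was narrow. Mean TPM was 3.55-fold higher in T_I than in N_I (log2 change of TPM + 1 of 1.13, SE 0.16, adjusted p = 1.73e-05). The increase was called in T_P against N_P too (1.44, adjusted p = 1.45e-06), and in T_GC against N_GC (0.69, adjusted p = 0.00436).

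With a tumour, markers of neutrophils moved with Tlr2, Tlr4, Tlr5 and Tlr13. All 10 of 10 mature neutrophil markers and 10 of 10 precursor markers were called higher in T_I against N_I and in T_GC against N_GC, beside 17.4% and 14.3% of all genes. Without a tumour, 8 of 10 mature and 10 of 10 precursor markers were called lower in N_GC against N_I, beside 2.30% of all genes. Of these receptors only Tlr13 was called lower there. The summed level of the mature list was 1917 to 5276 TPM in N_I, 2586 to 3812 TPM in N_P and 522 to 1143 TPM in N_GC. It was 151146 to 157185 TPM in T_I, 149320 to 162434 TPM in T_P and 27597 to 46641 TPM in T_GC, and no marker of either list was at 0 in a whole group. The monocyte list was at 331 to 700 TPM without a tumour and 524 to 787 TPM with one. Of its markers, 4 of 8 were called higher and 4 lower in T_I against N_I, beside 17.4% and 52.4% of all genes. The part of these cells in the receptor levels was not tested.

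**Figure D2:**
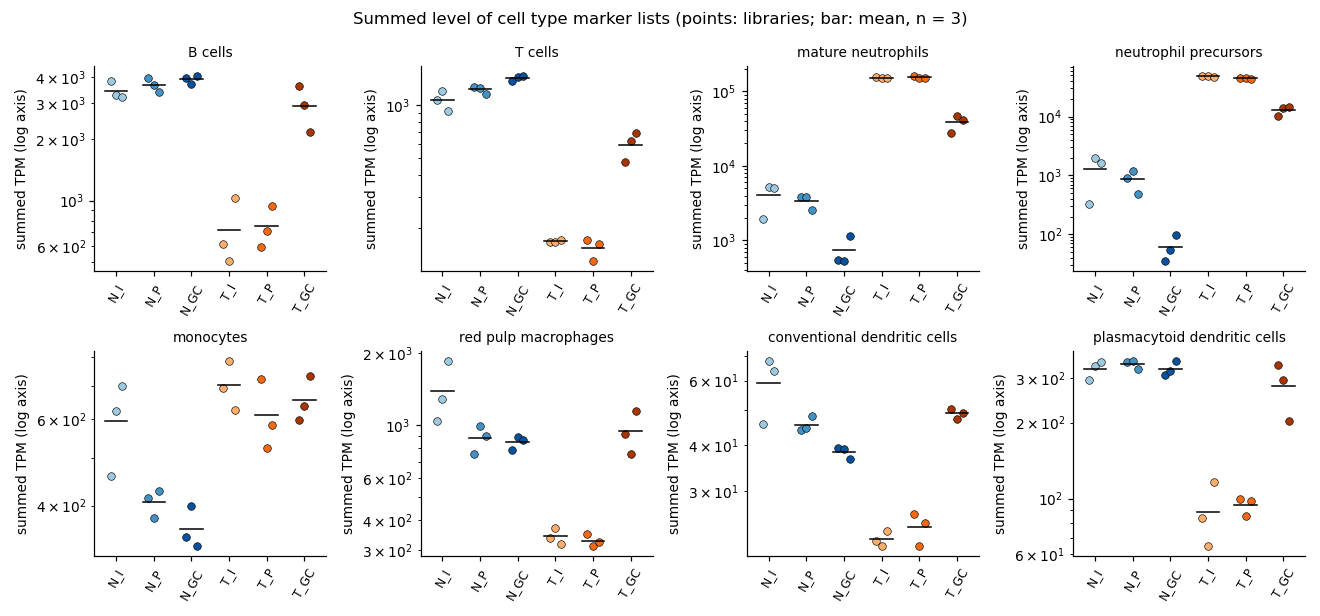
Summed TPM of 8 marker lists (vertical axes, log scale) in the 18 libraries by group (horizontal axes), with points for libraries and bars for group means, n = 3. The mature neutrophil list was at 149320 TPM or more in T_I and T_P and at 5276 TPM or less without a tumour, while the B cell list was at 1033 TPM or less in T_I and T_P and at 2175 TPM or more elsewhere.

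Among the endosomal receptors, Tlr9, which reads unmethylated CpG DNA, had the largest log2 decrease of TPM + 1 in T_I against N_I. In mean TPM, Tlr3 fell about as far, to 0.216 times N_I. Tlr9 was at 35.1, 40.8 and 39.2 TPM in N_I and at 8.52, 6.66 and 9.20 TPM in T_I. It was at 37.7, 31.5 and 31.9 TPM in N_P and at 7.22, 7.30 and 8.92 TPM in T_P. In N_GC it was at 37.9, 40.6 and 37.7 TPM and in T_GC at 40.6, 30.6 and 27.7 TPM. T_I and T_P were apart from all other libraries, and T_GC overlapped the tumour-free range. The log2 change was -2.12 (SE 0.14, adjusted p = 4.46e-09) in T_I against N_I, or 0.212 times the mean TPM, and -1.98 (adjusted p = 7.88e-09) in T_P against N_P. In T_GC against N_GC it was -0.24 and not called (95% interval -0.54 to 0.05, adjusted p = 0.187), but without replicate 10 of T_GC, the highest of its group, it was -0.40 and called (adjusted p = 0.0244).

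Tlr7, a receptor for single-stranded RNA, was at 16.4, 26.8 and 24.1 TPM in N_I and at 6.22, 11.1 and 7.75 TPM in T_I. It was at 20.5, 12.7 and 14.6 TPM in N_P and at 6.64, 7.14 and 7.14 TPM in T_P. In N_GC it was at 11.1, 25.2 and 16.7 TPM, the widest spread of the 3 tumour-free groups, and in T_GC at 20.1, 19.3 and 19.3 TPM. T_I and T_P lay below every N library, narrowly so for 1 library of each kind, and T_GC lay within the tumour-free range. The log2 change was -1.33 (SE 0.26, adjusted p = 0.000303) in T_I against N_I and -1.06 (adjusted p = 0.00193) in T_P against N_P. It was 0.21 in T_GC against N_GC and not called (95% interval -0.34 to 0.76, adjusted p = 0.559).

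Tlr3, the receptor for double-stranded RNA that signals through TRIF instead of MyD88, was at 3.08, 3.83 and 5.04 TPM in N_I and at 1.46, 0.350 and 0.770 TPM in T_I. It was at 3.66, 2.51 and 2.62 TPM in N_P and at 1.21, 0.610 and 0.790 TPM in T_P. In N_GC it was at 2.75, 3.20 and 3.95 TPM and in T_GC at 3.13, 3.55 and 3.35 TPM. Again T_I and T_P stood apart from all other libraries. The log2 change of TPM + 1 was -1.45 (SE 0.21, adjusted p = 2.38e-05) in T_I against N_I and -1.07 (adjusted p = 0.000382) in T_P against N_P, and it was 0.02 in T_GC against N_GC (95% interval -0.43 to 0.48, adjusted p = 0.949). An overlapping gene model, Gm45542, shares 3.32% of the 100-base windows of Tlr3 transcripts and was at 0.700 TPM or less in every library.

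Tlr13, a mouse receptor for bacterial ribosomal RNA, was called higher with a tumour under all 3 codes. It was at 12.3, 18.2 and 19.4 TPM in N_I and at 43.3, 49.5 and 37.2 TPM in T_I. It was at 12.1, 9.33 and 13.5 TPM in N_P and at 44.97, 45.9 and 41.8 TPM in T_P. In N_GC it was at 7.19, 9.10 and 8.92 TPM and in T_GC at 24.0, 26.6 and 35.2 TPM. All T libraries were above all N libraries, and T_GC was below T_I and T_P. The log2 increase was 1.35 (SE 0.18, adjusted p = 8.48e-06) in T_I, 1.85 (adjusted p = 2.84e-07) in T_P and 1.64 (adjusted p = 6.17e-06) in T_GC.

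Tlr8, which lies beside Tlr7 on chromosome X, did not share its decrease. It was at 6.88, 16.0 and 20.0 TPM in N_I and at 27.1, 20.3 and 15.3 TPM in T_I, with overlapping ranges. It was at 10.0, 8.70 and 11.7 TPM in N_P and at 21.6, 20.5 and 20.6 TPM in T_P, and at 5.85, 10.2 and 5.50 TPM in N_GC and 19.5, 19.5 and 25.4 TPM in T_GC. In the P and GC pairs the T libraries were all above the N libraries, and the log2 increases were 0.99 (adjusted p = 0.00950) and 1.49 (adjusted p = 0.00163). In T_I against N_I the log2 difference of 0.60 was not called (95% interval -0.05 to 1.25, adjusted p = 0.0920), and after median-of-ratios scaling it was 1.11 and called (adjusted p = 0.00617).

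Over the whole family, 6 members were called higher in T_P against N_P, beside 18.9% of all genes, and 4 lower, beside 50.3%. In T_GC against N_GC, 5 were called higher, beside 14.3%, and 1 lower, beside 18.9%. Median-of-ratios scaling gave 6 higher and 4 lower in T_I against N_I, and left the members' counts of the other 2 comparisons as they were. Over all genes, rescaling moved the calls of T_P against N_P from 3138 higher and 8367 lower to 5504 and 5001, and those of T_GC against N_GC from 2383 and 3149 to 3022 and 2150. The median log2 difference of the members was 0.72 in T_P against N_P and 0.44 in T_GC against N_GC, and that of all genes was -0.41 and -0.09.

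**Figure D3:**
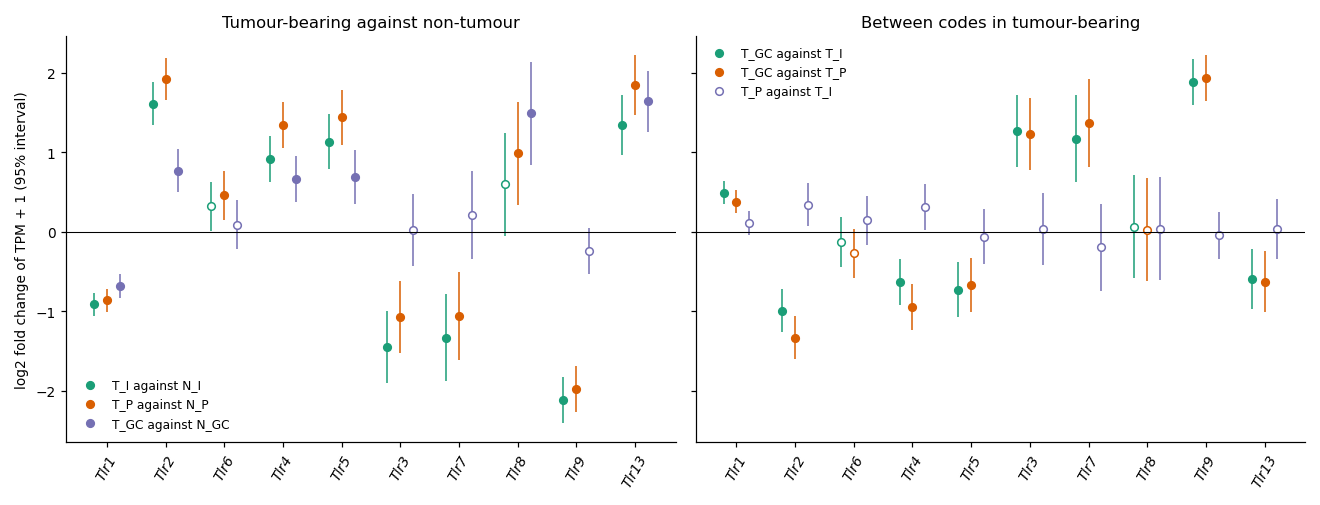
Log2 change of TPM + 1 with 95% interval (vertical axis) for each receptor (horizontal axis), with a tumour against without on the left and between codes with a tumour on the right. Filled points had an adjusted p below 0.05 and open points did not. All points of T_P against T_I are open, and Tlr9 has the largest change of T_GC against T_I on this scale, at 1.89.

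Markers of B cells, dendritic cells and red pulp macrophages moved with Tlr9, Tlr7 and Tlr3. So did the summed marginal zone macrophage list and the endothelial and stromal list, whereas T cell markers did so only in part. All 8 of 8 B cell markers were called lower in T_I against N_I, beside 52.4% of all genes, and 2 of 8 in T_GC against N_GC, beside 18.9%. In T_GC against T_I, 8 of 8 were called higher, beside 48.7%. The summed B cell list was at 3212 to 4072 TPM in the N libraries, 505 to 1033 TPM in T_I and T_P and 2175 to 3612 TPM in T_GC. The plasmacytoid dendritic cell list was at 295 to 353 TPM in the N libraries, 64.6 to 117 TPM in T_I and T_P and 203 to 338 TPM in T_GC. For conventional dendritic cells, known for TLR3, the list was at 36.7 to 68.0 TPM, 21.2 to 25.9 TPM and 47.2 to 50.2 TPM in the same order. Of its 8 markers, 7 were called lower in T_I against N_I and 6 in T_P against N_P, beside 52.4% and 50.3% of all genes. After rescaling, 6 were lower in T_I against N_I, and 3 lower and 1 higher in T_P against N_P. Over all 16635 genes, rescaled calls were 4869 lower in the former and 5001 lower and 5504 higher in the latter. Red pulp macrophage markers summed to 758 to 1866 TPM in N, 310 to 370 TPM in T_I and T_P and 759 to 1151 TPM in T_GC, with Clec4f at 0 in all libraries of N_I and N_GC. No B cell or dendritic cell marker was at 0 in a whole group. Of the other lists, 8 of 8 T cell, 3 of 3 marginal zone macrophage and 3 of 4 tested endothelial and stromal markers were called lower in T_I against N_I. In the N libraries the marginal zone macrophage list was at 11.8 to 35.65 TPM. It was at 1.16 to 1.98 TPM in T_I and T_P and at 8.89 to 15.9 TPM in T_GC. The endothelial and stromal list was at 87.75 to 116.7 TPM, 23.6 to 32.3 TPM and 70.0 to 88.2 TPM in the same order. Of red cell precursor markers, 4 of 8 were called lower and 1 higher, beside 52.4% and 17.4% of all genes. The 8 T cell markers were all called lower in T_GC against N_GC as well, beside 18.9% of all genes. Their sum was 473 to 691 TPM in T_GC and 929 to 1476 TPM in the N libraries. The part of these cells in the receptor levels was not tested.

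Ratios with endosomal receptors were also taken within a library. The ratio of Tlr13 to Tlr9 was 0.190 to 0.495 in the N libraries, 4.05 to 7.44 in T_I and T_P and 0.590 to 1.27 in T_GC. The ratio of Tlr8 to Tlr7 was 0.329 to 0.828 in the N libraries, 1.84 to 4.35 in T_I and T_P and 0.968 to 1.32 in T_GC. No range of these 2 ratios overlapped another. The ratio of Tlr4 to Tlr9 was 0.147 to 0.277 in the N libraries, 1.57 to 3.19 in T_I and T_P and 0.236 to 0.379 in T_GC, which overlapped the N libraries.

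**Figure D4:**
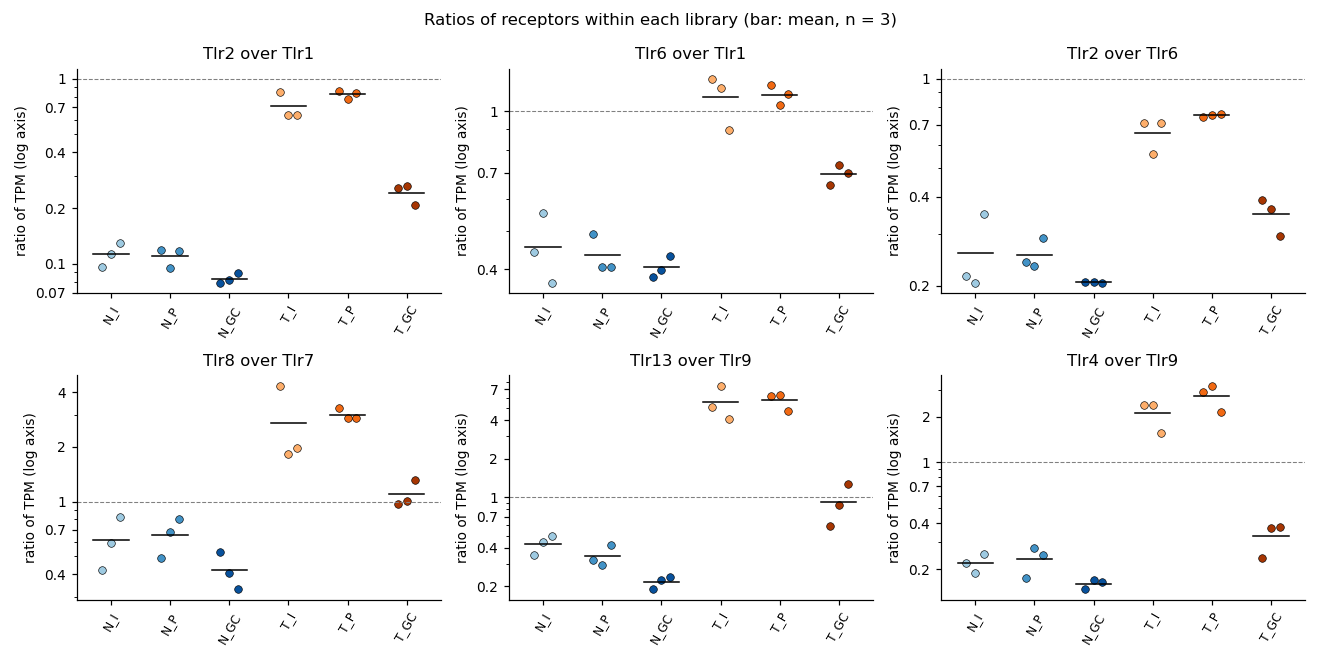
Ratio of the TPM of 2 receptors within each library (vertical axes, log scale) by group (horizontal axes). Points are libraries and bars group means, n = 3, and the dashed line marks equal levels. T_GC lay between the N libraries and T_I with T_P in 4 of the 6 ratios and overlapped the N libraries in Tlr2 over Tlr6 and Tlr4 over Tlr9.

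Within tumour-bearing mice, code GC was set against code I and code P. In T_GC against T_I, 4 members were called higher, beside 48.7% of all genes, and 4 lower, beside 12.7%. In T_GC against T_P, 4 were called higher, beside 49.1%, and 4 lower, beside 12.7%. After median-of-ratios scaling 3 were called higher and 5 lower in both, and over all genes the calls of T_GC against T_P went from 8173 higher and 2111 lower to 3829 and 4781. The 2 comparisons share the T_GC libraries. The median log2 difference over the members was -0.03 and -0.12, and over all genes 0.38 and 0.39.

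Tlr9 was higher in T_GC by 1.89 on the log2 scale against T_I (SE 0.14, adjusted p = 5.92e-08), or 4.06-fold in mean TPM, and by 1.93 against T_P (adjusted p = 5.00e-08). Tlr3 was higher by 1.27 (adjusted p = 0.000129) and 1.23 (adjusted p = 0.000166), and Tlr7 by 1.17 (adjusted p = 0.00117) and 1.37 (adjusted p = 0.000332). Tlr1 was higher in TPM by 0.49 (adjusted p = 2.59e-05) and 0.38 (adjusted p = 0.000256), but after median-of-ratios scaling its values were 0.02 against T_I and -0.10 against T_P and neither was called, so no direction is given for it. The other 3 kept their calls under that scaling.

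Tlr2 changed in T_GC by -0.99 against T_I (SE 0.13, adjusted p = 9.99e-06) and -1.33 against T_P (adjusted p = 5.93e-07) on the log2 scale. Tlr4 changed by -0.63 (adjusted p = 0.00107) and -0.94 (adjusted p = 3.32e-05), and Tlr5 by -0.73 (adjusted p = 0.00123) and -0.67 (adjusted p = 0.00229). Tlr13 changed by -0.59 (adjusted p = 0.00992) and -0.63 (adjusted p = 0.00687). Tlr6 and Tlr8 were not called in TPM. For Tlr8 the log2 differences were 0.06 (95% interval -0.59 to 0.71) and 0.03 (95% interval -0.62 to 0.67). For Tlr6 they were -0.13 and -0.27, and after rescaling -0.59 and -0.75, both then called.

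Whether the difference between codes GC and I depended on the tumour was tested as an interaction, the log2 difference of T_GC and T_I minus that of N_GC and N_I. It was called positive for 3 members, beside 33.4% of all genes, and negative for 1, beside 6.93%. The members were Tlr9 (1.87, SE 0.19, adjusted p = 8.43e-06), Tlr7 (1.54, SE 0.36, adjusted p = 0.00389) and Tlr3 (1.47, SE 0.30, adjusted p = 0.00150), and, in the negative direction, Tlr2 (-0.84, SE 0.18, adjusted p = 0.00186). All 4 were called too with median-of-ratios scaling, at 1.47, 1.14, 1.23 and -1.27, and Tlr4, Tlr5 and Tlr6 were then called negative as well. For Tlr13 the interaction was 0.30 and not called (95% interval -0.24 to 0.84, adjusted p = 0.370).

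Codes P and I gave no called receptor. In T_P against T_I, 0 of 10 members were called at a background of 0.012% in either direction, which is 2 genes, although 1010 genes had an unadjusted p below 0.05. Tlr2 was 0.34 higher in T_P on the log2 scale (95% interval 0.07 to 0.61, adjusted p = 0.757) and Tlr4 0.31 higher (95% interval 0.02 to 0.61, adjusted p = 0.797). The interval of Tlr9 was -0.34 to 0.25, and the widest, that of Tlr8, was -0.61 to 0.69. In N_P against N_I, 0 members were called, at a background of 0.571% and with 2247 genes at an unadjusted p below 0.05. The interaction of code P with the tumour was called for 0 members, at a background of 0.018% and with 1146 genes at an unadjusted p below 0.05.

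Without a tumour, code GC was set against codes I and P as well. In N_GC against N_I, 0 members were called higher, beside 0.451% of all genes, and 1, Tlr13, was called lower, beside 2.30%. Tlr13 was -0.89 on the log2 scale (SE 0.18, adjusted p = 0.0154), with every N_GC library below every N_I library. This call rests on single libraries: the adjusted p was 0.0687 without replicate 92 of N_I, 0.101 without replicate 96 of N_I and 0.0749 without replicate 11 of N_GC. Tlr8 was -0.83 and not called (95% interval -1.48 to -0.18, adjusted p = 0.190), but without replicate 18 of N_I, the lowest of its group, it was -1.25 (adjusted p = 0.00866). Of the mature neutrophil markers, 8 of 10 were called lower in the same comparison and of the precursor markers 10 of 10. In N_GC against N_P, 0 members were called, beside 0.427% of genes higher and 0.745% lower, with 2371 genes at an unadjusted p below 0.05.

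The order of the groups by mean TPM differed between members. For Tlr2, Tlr4 and Tlr13 it ran from N_GC as the lowest to T_P as the highest. In Tlr2 the 3 N groups overlapped one another in that order, as did T_I and T_P, while T_GC stood alone. In Tlr4, T_GC overlapped N_I. In Tlr13, N_GC was below N_P with no overlap, N_P and N_I overlapped, and T_GC stood alone. Tlr1 ran the other way, from T_I as the lowest to N_GC as the highest, with T_GC alone between T_P and N_I. For Tlr3, Tlr7 and Tlr9, T_I and T_P were the lowest 2 groups and overlapped each other, and above a gap each of the other 4 groups overlapped the next. For Tlr5, T_GC stood alone between the N groups and T_P, and for Tlr8 each group overlapped the next. The highest group mean exceeded the lowest by 7.11-fold for Tlr5, 5.26-fold for Tlr13, 4.96-fold for Tlr9, 4.72-fold for Tlr2 and 4.63-fold for Tlr3. For Tlr6 the ratio was 1.38, and each of its groups overlapped the next.

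Of the accessory proteins that hand lipopolysaccharide to TLR4, Lbp and Cd14 rose with a tumour and Ly96 was not called higher in T_I or T_GC. Lbp, which carries lipopolysaccharide to CD14, was at 0.580, 2.35 and 2.42 TPM in N_I and at 114.0, 116.5 and 103.7 TPM in T_I. It was at 18.1, 16.6 and 22.6 TPM in T_GC and at 0.260 to 0.380 TPM in N_GC, so that T_GC stood between the N libraries and T_I. The log2 change was 5.42 (adjusted p = 2.33e-10) in T_I against N_I, 3.92 (adjusted p = 4.04e-08) in T_GC against N_GC and -2.49 (adjusted p = 1.31e-06) in T_GC against T_I. Cd14, the lipopolysaccharide co-receptor, rose from a mean of 21.8 TPM in N_I to 57.4 TPM in T_I (log2 change 1.39, adjusted p = 0.000156). In T_GC against N_GC its log2 change was 0.88 (adjusted p = 0.0137). The T_GC libraries of Cd14, at 24.3, 29.1 and 39.25 TPM, overlapped those of N_I, at 15.6, 18.3 and 31.4 TPM. Ly96, which encodes MD-2, the part of the TLR4 complex that binds lipopolysaccharide, was at 8.54 to 9.52 TPM in T_I and 9.93 to 14.8 TPM in N_I. Its log2 change of -0.39 was called in TPM (adjusted p = 0.0306) but was 0.10 and not called after rescaling, and it was 0.13 in T_GC against N_GC and not called. The T_P libraries of Ly96, at 11.4, 12.4 and 11.7 TPM, were all above the N_P libraries, at 10.9, 10.7 and 8.32 TPM.

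Cd180, a TLR4-like surface receptor of B cells, and Ly86, which encodes its partner MD-1, fell together. Cd180 was at 75.8 to 80.8 TPM in N_I, 10.6 to 15.8 TPM in T_I and 42.95 to 65.9 TPM in T_GC, 3 ranges that did not overlap. Its log2 change was -2.41 in T_I against N_I (adjusted p = 4.24e-09) and 1.87 in T_GC against T_I (adjusted p = 1.87e-07). Ly86 changed by -1.64 and 1.41 in the same comparisons (adjusted p = 9.70e-09 and 1.48e-07). Unc93b1, the chaperone that brings the endosomal receptors to endosomes, was at a mean of 431 TPM in N_I, 252 TPM in T_I and 415 TPM in T_GC, and was called lower in T_I against N_I (log2 change -0.77, adjusted p = 4.11e-05, and -0.23 and still called after rescaling). Cd36, a lipid receptor that assists TLR2, changed by -2.44 (adjusted p = 5.51e-08). Slc15a4, an endolysosomal transporter needed for TLR7 and TLR9 signalling in mouse, changed by -2.12 (adjusted p = 0.000315), while the related Slc15a3 changed by 0.58 (adjusted p = 0.00108). Of the 13 co-receptors and chaperones, 3 were called higher and 7 lower in T_I against N_I, beside 17.4% and 52.4% of all genes. After rescaling these were 6 and 5, beside 5471 and 4869 of the 16635 genes. In T_GC against T_I, 6 were called higher and 2 lower, beside 48.7% and 12.7%. After rescaling these were 4 and 5, beside 3815 and 4784 genes. Nothing particular to these genes is read from the counts.

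**Figure D5:**
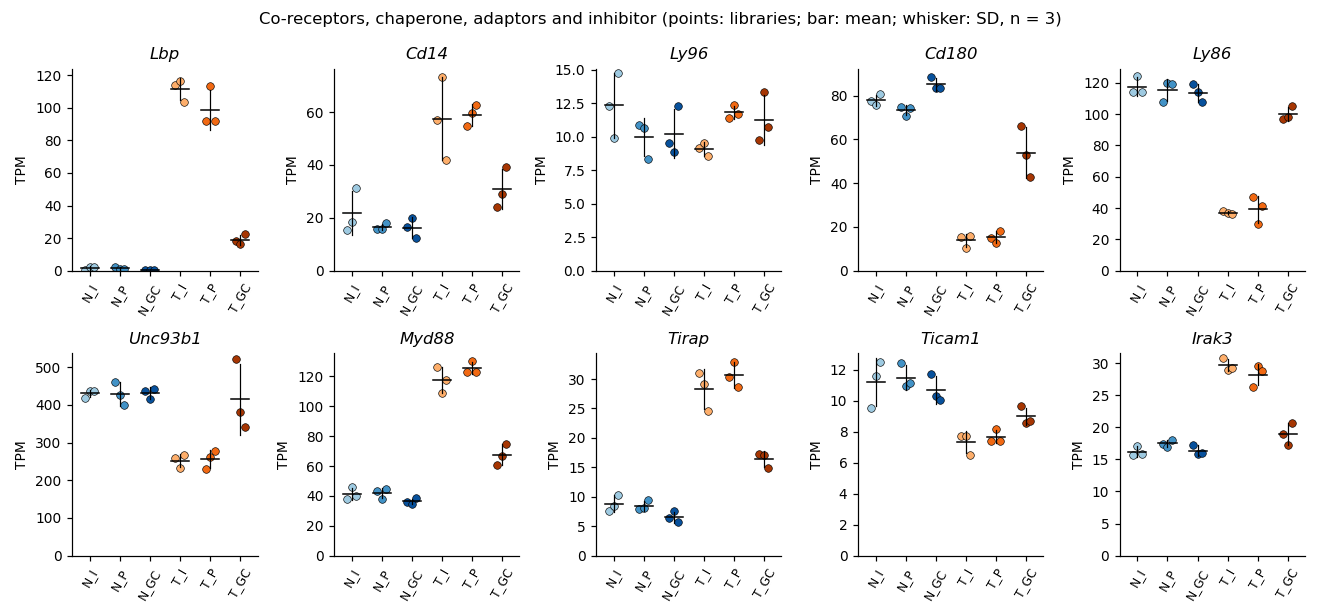
Level in TPM (vertical axes) of 10 genes that work with the receptors, in the 18 libraries by group (horizontal axes). Points are libraries, bars group means and whiskers 1 SD, with n = 3. Lbp, Myd88 and Tirap were above all N libraries in every T library, and Cd180 and Ly86 were lower in T_I and T_P than in all other libraries.

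The adaptors of the receptors moved in different directions. Myd88 was at 37.9, 45.7 and 40.2 TPM in N_I, at 126.1, 108.6 and 117.8 TPM in T_I and at 61.0, 66.5 and 75.0 TPM in T_GC. All T libraries were above all N libraries (log2 change 1.49, adjusted p = 2.24e-09 in T_I against N_I). Tirap, which links TLR2 and TLR4 to MyD88, rose from a mean of 8.83 to 28.3 TPM (log2 change 1.58, adjusted p = 3.66e-08). Ticam1, which encodes TRIF, the adaptor of TLR3 and TLR4, was at a mean of 11.2 TPM in N_I and 7.32 TPM in T_I (log2 change -0.55 in TPM, adjusted p = 0.000255, but -0.06 and not called after rescaling). Over the 5 adaptors tested of 6, 2 were called higher and 2 lower in TPM in T_I against N_I, beside 17.4% and 52.4% of all genes. After rescaling these were 2 and 0, beside 5471 and 4869 of the 16635 genes.

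Downstream of the adaptors, counts of calls in TPM stand beside the 17.4% of all genes called higher and 52.4% called lower in T_I against N_I, and nothing particular to the pathway is read from them. Rescaled counts in that comparison stand beside 5471 genes called higher and 4869 called lower of 16635. Of 19 kinases and ubiquitin ligases, 3 were called higher and 12 lower in T_I against N_I, and 8 and 7 after rescaling. The 3 were Peli2, an E3 ligase of the IRAK complex (2.53 on the log2 scale), Irak4, the first kinase recruited to MyD88 (0.58), and Ripk1 (0.22). Those lower included Ikbkb, an NF-kB activating kinase (-1.30), Peli1 (-1.32) and Irak1 (-0.999). Of 10 transcription factors, Fos (1.32) and Jun (1.09) were called higher and 8 lower, among them Relb (-1.63), Rel (-1.57) and Irf3 (-1.11), and 2 and 7 after rescaling. In T_GC against T_I, 8 of the 10 were called higher and 0 lower, beside 48.7% and 12.7% of all genes. After rescaling these were 6 and 1, beside 3815 and 4784 of the 16635 genes.

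Among 13 inhibitors of the pathway, 2 were called higher and 9 lower in T_I against N_I, beside the same shares of all genes. After rescaling these were 4 and 6, beside 5471 and 4869 of the 16635 genes. Irak3, which encodes IRAK-M, a brake on TLR signalling in macrophages, was at 15.7 to 17.1 TPM in N_I and 29.0 to 30.8 TPM in T_I (log2 change 0.84, adjusted p = 9.42e-08), and Il1rl1 was called higher as well (1.04). Sigirr, an inhibitory receptor, changed by -1.76, Nfkbie, which encodes an NF-kB inhibitor, by -1.72 and Zc3h12a, an RNase that degrades cytokine transcripts, by -1.11. Of 20 genes that TLR signalling can induce, 15 passed the filter, and 7 were called higher and 6 lower (7 and 3 after rescaling). Saa3, a serum amyloid A protein, rose from 0.790 ± 0.315 to 215 ± 143 TPM (SD, n = 3). Nos2, the inducible nitric oxide synthase, rose from a mean of 0.0967 to 9.92 TPM and Acod1, which makes itaconate, from 0.923 to 15.1 TPM. Ccl5, a chemokine also made by T cells, fell from 487 to 53.5 TPM. Il10, Il23a, Cxcl1, Ifnb1 and Ptgs2 did not pass the filter. In T_GC, Nos2 was at a mean of 0.210 TPM and Saa3 at 12.2 TPM, and both were called lower than in T_I (-3.09 and -4.39).

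Mice have 2 further receptors of the family that people lack as working genes, Tlr11 and Tlr12, which sense profilin of protozoa. Tlr11 was at a mean of 5.63 TPM in N_I, 1.45 TPM in T_I and 4.26 TPM in T_GC, and Tlr12 at 5.99, 1.24 and 3.94 TPM. Both were called lower in T_I against N_I (-1.41 and -1.67) and higher in T_GC against T_I (1.09 and 1.19), as Tlr3, Tlr7 and Tlr9 were.

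The genes closest to each receptor over the 18 libraries were ranked by the root mean square difference of centred log2(TPM + 1). For Tlr9 they were Prkce (0.12), Plpp3 (0.12) and Hivep2 (0.12), against a range of 2.18 between its group means. For Tlr2 they were Mxi1 (0.15), Cdc25a (0.16) and Gk (0.16), and for Tlr13 Sirpb1a (0.17), Itpripl2 (0.18) and Trim30b (0.18). For Tlr4 they were Pnp, Cdc42ep4 and Tnfaip6, for Tlr5 Ptpre, Naip2 and Plekhg3, and for Tlr1 Zdhhc18, Jak1 and Vmn2r84. For Tlr3 they were Usp16, Kctd12b and Slc43a2, for Tlr6 Atp11b, Tex2 and Hipk1, for Tlr7 they included Gbgt1 and Ackr3, and for Tlr8 Nlrp1b, Il18bp and Scarb1. The nearest gene was most distant for Tlr8 (0.25) and Tlr7 (0.23). No receptor was among the 3 nearest genes of another.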

How the data were processed

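RNA of 18 spleen samples was sequenced. The authors deposited TPM, made with fastp, RSEM and the build GRCm39 per the submitters' processing notes, with no versions. The table gives 2 decimals, keeps no depth and pools no library, so no count test was run. Values were used as log2(TPM + 1), after a filter of 1 TPM in 3 libraries, in 1 limma fit (limma 3.58.1, R 4.3.3, intensity trend) of the 6 group means, with 12 residual degrees of freedom, 11 contrasts and two-sided Benjamini-Hochberg adjusted p-values. The script was tested on simulated data. Each result was recomputed after adding 0.1 in place of 1, with all genes above 0, with genes at 5 TPM or more in 3 libraries, after median-of-ratios scaling, with TPM without 20 neutrophil marker genes, in a fit of only the libraries compared, with array weights, with robust moderation, and without each library in turn.

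The members, the gene and marker lists and the tests were chosen with earlier results of these data known. All 10 members are named, and of each pathway list up to 3 genes with the smallest p in each direction among those called, besides co-receptors, adaptors and Irak3, which were named for their role. The 3 nearest genes leave out predicted genes. One near gene of Tlr7 is not reported here. Promoters came from the RefSeq table on GRCm38.p6, neighbours from RefSeq genes, and shared windows from GENCODE vM21 (chromosomes only). Proteins were not analysed here.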

Additional observations from a re-analysis of the deposited data

Results flagged for a closer look

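For 4 receptors the difference between codes GC and I differed with the presence of a tumour, by limma's interaction term with Benjamini-Hochberg adjustment over all genes. The values, on the log2 scale, were -0.84 for Tlr2 (adjusted p = 0.00186), 1.47 for Tlr3 (adjusted p = 0.00150), 1.54 for Tlr7 (adjusted p = 0.00389) and 1.87 for Tlr9 (adjusted p = 8.43e-06). For Tlr9 the 3 T_GC libraries were all above the 3 T_I libraries, whereas N_GC and N_I overlapped. The range over all alternatives was 1.47 to 1.99 for Tlr9, 1.14 to 1.82 for Tlr7, 1.23 to 2.27 for Tlr3 and -1.27 to -0.70 for Tlr2, and each stayed called in every alternative that gave a value for it. Beside 33.4% of all genes, the interaction was called positive for 8 of 8 B cell, 7 of 8 T cell, 8 of 8 plasmacytoid and 8 of 8 conventional dendritic cell, 7 of 7 red pulp macrophage and 3 of 3 marginal zone macrophage markers. It was called positive for 4 of 8 monocyte, 4 of 8 red cell precursor, 1 of 4 endothelial and stromal, 3 of 10 neutrophil precursor and 0 of 10 mature neutrophil markers. After rescaling, 2 of 10 mature neutrophil markers were called negative and, of the precursor markers, 1 positive and 1 negative. Over all 16635 genes, 2273 were then called positive and 3310 negative. Rescaled positive calls were 8 B cell, 7 T cell, 7 plasmacytoid and 7 conventional dendritic cell, 6 red pulp and 3 marginal zone macrophage markers. There were also 3 monocyte, 1 red cell precursor and 1 endothelial and stromal marker. The part of these cells in the receptor values was not tested.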

How the results depend on the processing

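Of 45 calls of receptors over the 11 comparisons, 41 held under every alternative that gave a value for them. The filter of 5 TPM gave none for Tlr3 and Tlr5. Among 1634 recomputed values, 1604 stayed called in the same direction or stayed uncalled, 22 gained a call and 7 lost one. The remaining 1 lost its call and changed sign: Tlr1 in T_GC against T_P was -0.10 with median-of-ratios scaling. Values not called in either fit could change sign too, as Tlr8 in T_GC against T_I did, from 0.06 to -0.39 with that scaling. For the interaction of code GC, 4 receptors were called lower with that scaling and 2 with TPM without the neutrophil marker genes, against 1 in TPM. In N_GC against N_I, 0 were called lower when fitted alone and 1, Tlr1, was called higher with array weights. Leaving out 1 library gave 0 to 2 lower in that comparison and 1 to 2 lower in T_GC against N_GC.

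Counts over all genes moved more. Fits of only the libraries compared called 3454 genes in T_GC against N_GC, 24 in N_GC against N_I, 32 in N_GC against N_P, 21 in N_P against N_I and 1 in the interaction of code P. Array weights called 584 in N_GC against N_P and 186 in N_P against N_I. In T_P against T_I, a pseudocount of 0.1 called 1, no filter 4 and a filter of 5 TPM 1, and the pseudocount called 1 in the interaction of code P. Leaving out 1 library gave 145 to 686 genes in N_GC against N_I, 69 to 138 in N_GC against N_P, 22 to 250 in N_P against N_I, 1 to 4 in T_P against T_I and 0 to 11 in the interaction of code P. The causes were not tested. No paired analysis was possible because the groups share no replicate numbers. Depth is unknown, and Tlr5 and Tlr3 were near 1 TPM in some groups.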
